A study of Mus musculus with 75 samples.

Results

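The genes described here are 42 genes of the lysosome, the acidic compartment in which cells digest proteins, sugars and lipids. They were taken as a list by gene symbol, with no threshold on a measured value but with earlier results of these data known, and all 42 were found among the 24984 genes of the RNA-seq count files. They comprise 10 glycosidases and sulfatases, 6 lipid enzymes and lipid carriers, 5 membrane proteins, 11 proteases, progranulin, 2 transcription factors and 7 subunits of the proton pump. Mouse skin fibroblasts were passaged until they entered replicative senescence (RS), and RNA was sequenced at passage 1 (P1) and again at P3, P5 and P7, in 4 libraries per passage of untreated cells. The donors were female mice of the strain C57BL/6, aged 2 months.

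In the other RNA-seq experiments, C57BL/6 skin fibroblasts were given lentiviruses. E2f4, a repressive E2F factor of the cell cycle, was overexpressed under doxycycline at P4 (2 libraries, with 2 of a control called vector in the labels and EGFP in the methods), and it was knocked down at P3 with 1 hairpin (sh1). Tead1, a partner of the Hippo pathway, was knocked down with sh3 or sh4, whose target stretches overlap. Atf3, a factor of the AP-1 family, was knocked down with sh5 or sh6 in pre-senescent cells. Each hairpin and each non-targeting hairpin (nt) had 3 libraries, and the knockdown cells were selected with puromycin. Both adult and newborn fibroblasts were used in the study, and which of them gave each intervention library is not stated in the sources used here. The labels name no animal or culture for a replicate, so the p-values measure the spread between these libraries.

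Lysosomal hydrolases are made as glycoproteins, are carried to the lysosome and work best at acid pH, which the vacuolar proton pump maintains by moving protons through its membrane sector V0 with ATP hydrolysed by its cytosolic sector V1. TFEB and TFE3 are transcription factors that bind an E-box within the CLEAR element of many lysosomal promoters, and phosphorylation by mTORC1 keeps them in the cytoplasm. Senescent fibroblasts are known for an enlarged lysosomal compartment, and the stain used to recognise them, senescence-associated β-galactosidase (SA-β-Gal), reads the activity of the enzyme that Glb1 encodes.

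The total count per library was 13430229 to 15725823 in the passage experiment and 9147324 to 27552949 over all 44 libraries. Levels are given as CPM, the counts scaled to a common library size with TMM, and differences as log2 fold changes of edgeR's quasi-likelihood fit with their SE. A gene is said to have risen or fallen only where its Benjamini-Hochberg adjusted p over all genes tested in that experiment was under 0.05. All 42 genes passed the filter on low counts at the passages. In every intervention Ctss did not, nor did Atp6v0c in either E2f4 experiment, which left 40 or 41. The markers of fibroblasts were present in every library, with a summed level of 17113 to 41704 CPM over 10 genes. Macrophage markers were highest at P1: the 14 of them summed to 359 to 554 CPM there, 50.3 to 69.6 at P3, 23.7 to 33.7 at P5, 35.8 to 57.2 at P7 and 8.94 to 24.6 in the interventions. From P1 to P3 the summed markers of keratinocytes went from between 60.8 and 373 CPM to between 3.09 and 6.24, those of skeletal muscle from 177 to 283 to 57.3 to 66.1, those of endothelium from 151 to 160 to 40.4 to 45.0, and those of adipocytes from 60.9 to 71.7 to 16.5 to 22.5. Most of the muscle sum at P3 was Acta1, at 43.9 to 49.0 CPM. The summed markers of fibroblasts were at 22756 to 24669 CPM at P1, 31661 to 37312 at P3 and 35503 to 38394 at P7. Of these 10 markers, 5 rose and 4 fell in P7 against P1. Dcn, among those that fell, was at 846 to 1229 CPM at P1 and at 172 to 404 at P7. The part of these shifts in the comparisons with P1 was not tested. In bulk samples, fewer cells of a type and less RNA per cell cannot be told apart.

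The E-box of the CLEAR element is shown in the promoters of some of the genes that hold it, because it is the sequence through which TFEB and TFE3 are known to act. Promoters were taken from RefSeq's table for GRCm38 (mm10), from 250 bases before to 50 bases after each start site, and 35 of the 42 genes matched. Capitals mark CACGTG in Glb1 and Lamp1 and the longer TCACGTGA in the others. Positions are counted from the start site. In Glb1 (chr9:114400990-114401075, plus strand) the match began 48 bases before it. Gla (chrX:134601153-134601255, minus strand) had 2 matches, and Lamp1 (chr8:13159060-13159160, plus strand) had 4. Mcoln1 (chr8:3500433-3500518, plus strand), Ctsd (chr7:142387879-142387966, minus strand) and Atp6v1a (chr16:44139344-44139431, minus strand) each had 1 TCACGTGA. Mcoln1 also had a CACGTG at -71, left unmarked below, and Ctsd had one at -245, outside the stretch shown.
Glb1: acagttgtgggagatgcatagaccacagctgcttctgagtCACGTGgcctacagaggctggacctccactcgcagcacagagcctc
Gla: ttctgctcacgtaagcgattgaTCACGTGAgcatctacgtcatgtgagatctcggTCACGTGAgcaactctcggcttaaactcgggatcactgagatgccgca
Lamp1: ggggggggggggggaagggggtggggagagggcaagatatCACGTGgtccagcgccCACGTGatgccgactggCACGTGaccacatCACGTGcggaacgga
Mcoln1: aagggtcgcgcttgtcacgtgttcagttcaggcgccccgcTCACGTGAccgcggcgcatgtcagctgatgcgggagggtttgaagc
Ctsd: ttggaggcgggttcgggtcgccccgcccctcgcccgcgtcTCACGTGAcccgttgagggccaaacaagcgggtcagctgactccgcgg
Atp6v1a: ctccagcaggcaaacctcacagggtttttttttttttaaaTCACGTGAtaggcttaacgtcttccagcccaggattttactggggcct

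CACGTG, which reads the same on both strands, was in the promoters of 13 of the 35 genes (37.1%). It was in 11.7% of the 10508 genes tested at the passages that had a promoter in the table, and in 7.15% of all 32851 promoters. TCACGTGA, which contains CACGTG, was in 6 of the 35 (17.1%), against 2.15% and 0.974%. The palindrome that is longer by a G at its start and a C at its end was in 0 of the 35, against 0.761% and 0.326%. The 13 genes with CACGTG were Glb1, Gla, Gaa, Naglu, Lamp1, Mcoln1, Ctsa, Ctsd, Ctsf, Ctsl, Lgmn, Atp6v0d1 and Atp6v1a. Among 53 other lysosomal genes, of which 39 had a promoter in the table, CACGTG was in 10 (25.6%). A match is a description of the letters and does not show a bound site.

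Most of the 42 genes were higher in senescent cells than at the start of culture, but by less than 2-fold. In P7 against P1, 26 rose and 7 fell (78.6% of 42), where 62.5% of the 13442 genes tested were called (30.5% higher and 31.9% lower). The median log2 fold change was 0.34 over the 42 genes and -0.01 over all genes. With library totals in place of TMM, which moved the median of all genes by -0.21, 17 rose and 11 fell. At the study's own threshold, which also asks for a fold over 2, Ctsf alone rose and Ctss alone fell, where 8.10% and 13.3% of all genes tested passed. The 9 genes that did not pass the test were Gusb, Npc1, Psap, Cd63, Ctsa, Ctsh, Ctsk, Atp6v0c and Atp6v1b2.

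**Figure D1:**
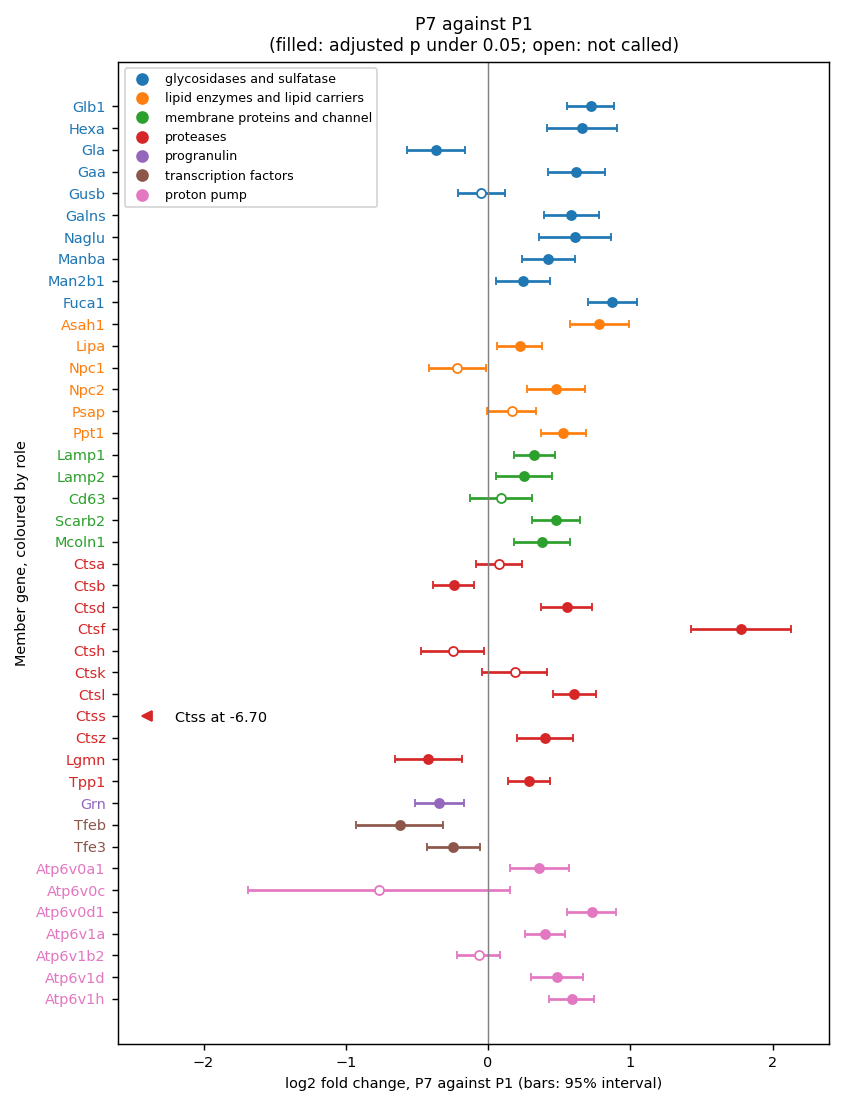
Log2 fold change of P7 against P1 for the 42 genes, coloured by role, with 95% intervals from edgeR's fit (4 libraries per passage; filled points have an adjusted p under 0.05, open points do not). Ctsf lies farthest to the right at 1.78, Ctss is drawn at the left edge with its value of -6.70, and both transcription factors lie left of 0.

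Among the glycosidases and sulfatases, 8 of 10 rose and 1 fell from P1 to P7. Glb1, the lysosomal β-galactosidase, was at 57.0, 53.2, 58.6 and 58.0 CPM at P1, at 67.4, 67.6, 55.1 and 60.9 at P3, at 76.2, 78.6, 76.4 and 91.2 at P5, and at 98.2, 88.7, 91.8 and 95.2 at P7. No P5 or P7 library overlapped the P1 or P3 libraries. The log2 fold change of Glb1 in P7 against P1 was 0.72 (SE 0.08, adjusted p = 4.35e-07). Fuca1, which removes fucose, rose by a log2 fold change of 0.87, and its libraries went from between 53.6 and 63.6 CPM to between 102 and 114. Hexa, a subunit of β-hexosaminidase, rose by 0.66 on that scale, Gaa, which degrades glycogen, by 0.62, and Naglu, an enzyme of heparan sulfate, by 0.61. Gla, the α-galactosidase of globotriaosylceramide, was the exception. It was at 74.7, 70.3, 83.8 and 77.6 CPM at P1 and at 67.3, 57.7, 60.1 and 52.6 at P7, so that every P7 library was below every P1 library, and its log2 fold change was -0.37 (adjusted p = 0.00493). Gusb, the β-glucuronidase, had a log2 fold change of -0.05 and did not pass.

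Of the 6 lipid enzymes and carriers, 4 rose in P7 against P1, and Npc1 and Psap did not pass. Asah1, the acid ceramidase, was at 301, 322, 283 and 376 CPM at P1 and at 556, 486, 593 and 571 at P7, and its log2 fold change was 0.78. These groups did not overlap. Npc2, the soluble cholesterol carrier, was at 401 to 430 CPM at P1 and 541 to 651 at P7, while its membrane partner Npc1 had a log2 fold change of -0.22 (adjusted p = 0.07). Of the 5 membrane proteins, 4 rose, and Scarb2, the carrier of glucocerebrosidase, had the highest log2 fold change of them (0.48). Lamp1, the major glycoprotein of the lysosomal membrane, was at 1321 to 1462 CPM at P1 and at 1660 to 1752 at P7, with a log2 fold change of 0.33. Mcoln1, a calcium channel of the lysosomal membrane, was at 40.6, 36.9, 37.4 and 38.6 CPM at P1 and at 52.4, 54.2, 43.7 and 49.5 at P7. Its groups did not overlap, and its log2 fold change was 0.38 (adjusted p = 0.00257). Cd63, a tetraspanin of lysosomes and exosomes, did not pass (0.09).

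The proteases were the most divided group, with 5 of 11 higher and 3 lower. Ctsf, a cysteine cathepsin, had the highest log2 fold change of the 42 genes (1.78, SE 0.18, adjusted p = 5.72e-08). It was at 10.8, 11.5, 13.7 and 13.9 CPM at P1, at 17.7, 14.9, 13 and 19.2 at P3, at 18.9, 21.6, 23.2 and 38.5 at P5, and at 45.0, 39.97, 40.9 and 45.4 at P7. Every P7 library was above every library of the other passages. Ctsd, the main aspartic protease of the lysosome, was at 987 to 1035 CPM at P1 and 1350 to 1620 at P7 (log2 fold change 0.55). The lower genes were Ctss, Lgmn and Ctsb. Lgmn, the asparaginyl endopeptidase that processes other cathepsins, was at 169, 158, 175 and 125 CPM at P1 and at 138, 117, 115 and 99.3 at P7, with a log2 fold change of -0.42 (adjusted p = 0.0055) and an overlap of the groups through P1 replicate 4. Ctsb, a cysteine cathepsin, had a log2 fold change of -0.24 (adjusted p = 0.00831). Grn, the precursor of the granulins, was at 555 to 605 CPM at P1 and 437 to 479 at P7 and also fell (-0.34).

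Ctss, the cathepsin that antigen-presenting cells use to trim the invariant chain, was nearly lost from the culture. Its level was 96.6, 94.3, 96.2 and 64.7 CPM at P1, 6.24, 9.88, 5.48 and 7.53 at P3, 0.582, 0.830, 0.646 and 1.72 at P5, and 0.611, 0.386, 0.0769 and 2.23 at P7. The P7 values rest on 1 to 30 counts per library, and the fitted log2 fold change of P7 against P1 was -6.70 (adjusted p = 1.74e-11). Most macrophage markers moved with it. P1 replicate 4, which was lowest in Ctss among the P1 libraries, was also lowest in the summed macrophage markers (359 CPM), and in P3 against P1 13 of the 13 macrophage markers tested fell. In P7 against P1, 12 of the 13 tested fell. The exception was Csf1r, at 24.2, 20.7, 19.96 and 17.1 CPM at P1 and at 24.6, 23.5, 20.4 and 18.6 at P7. All 14 macrophage markers had counts in some P7 library. Ptprc, Adgre1, C1qa and Tyrobp were each under 1 CPM in every P7 library, and most of the sum there was Csf1r and Lyz2. What part macrophages had in the fall of Ctss, Lgmn, Ctsb or Ctsh was not tested.

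Of the 7 subunits of the proton pump, 5 rose in P7 against P1, and Atp6v0c and Atp6v1b2 did not pass. Atp6v0d1, which couples both sectors of the pump, had the highest log2 fold change (0.73), at 139 to 161 CPM at P1 and 215 to 261 at P7. Atp6v1a, the catalytic subunit that hydrolyses ATP, was at 243, 260, 242 and 267 CPM at P1 and at 310, 327, 349 and 349 at P7. Its groups did not overlap, and its log2 fold change was 0.40 (adjusted p = 8.9e-05). The log2 fold changes were 0.59 for Atp6v1h, 0.48 for Atp6v1d and 0.36 for Atp6v0a1. Atp6v1b2, the other subunit of the ATP-hydrolysing ring, was at 208 to 241 CPM at P1 and 194 to 230 at P7 and did not pass. Atp6v0c, which forms the proton-carrying ring, had only 3 to 25 counts in any of the 44 libraries. Its near-identical copy Atp6v0c-ps2 was listed at 0 throughout, and the level of Atp6v0c is therefore uncertain.

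Both transcription factors moved against most of the enzymes. Tfeb was at 6.71, 7.20, 7.59 and 6.62 CPM at P1 and at 5.34, 4.09, 3.69 and 5.12 at P7. The groups did not overlap, and the log2 fold change was -0.62 (SE 0.16, adjusted p = 0.00179). Tfe3 was at 67.1, 62.9, 78.7 and 67.8 CPM at P1 and at 55.4, 65.9, 59.4 and 52.7 at P7, and the groups overlapped. Its log2 fold change was -0.24 (adjusted p = 0.0309). This call was lost without P1 replicate 3 or 4 or without P7 replicate 1, 3 or 4 (adjusted p from 0.0508 to 0.146), and with only both groups in the fit (0.0669). Of the 35 genes with a promoter in the table, 10 of the 13 with CACGTG rose and 2 fell, and 13 of the 22 without it rose and 4 fell. Of all genes tested, 30.5% rose and 31.9% fell. In P7 against P3, 12 of the 13 rose and 0 fell, and 14 of the 22 rose and 1 fell. There, 24.8% of all genes rose and 26.5% fell. Whether the calls depend on CACGTG was not tested.

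**Figure D2:**
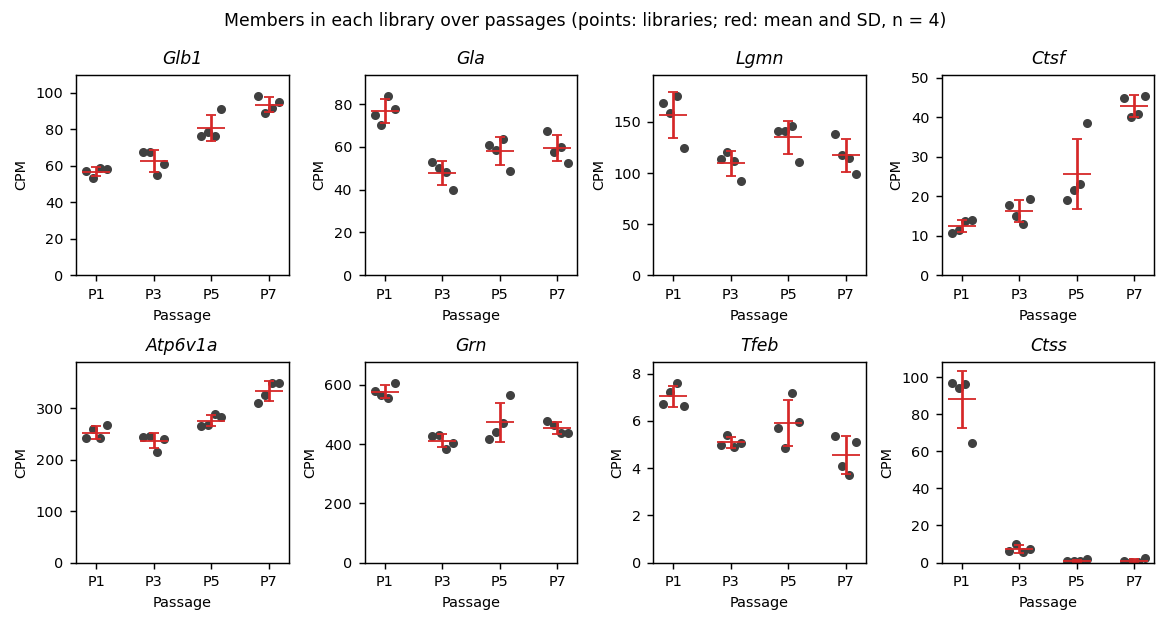
CPM of 8 genes in each library (points) of P1, P3, P5 and P7, with the mean and SD of 4 in red. Glb1 climbs from 53.2 to 58.6 CPM at P1 to 88.7 to 98.2 at P7, Gla, Lgmn and Grn are lowest on average at P3, and Ctss is close to 0 from P5 on.

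The rise was not even over the passages. The first step went down for many of the genes: in P3 against P1, 4 rose and 18 fell (52.4%, against 33.4% of all genes tested, 15.95% higher and 17.5% lower), with a median log2 fold change of -0.22 over the 42 genes and 0.00 over all. With library totals, which moved the median of all genes by -0.12, 2 rose and 24 fell. Of the 11 proteases 8 fell. Ctss (log2 fold change -3.60), Ctsh (-0.89) and Ctsb (-0.69) fell most. Ctsb was at 1775, 1616, 1795 and 1572 CPM at P1 and at 1046, 1116, 1020 and 1003 at P3, with no overlap. Scarb2 (0.52), Asah1 (0.45) and Lamp2 (0.37) rose most, and the call of Lamp2 was lost with library totals (adjusted p = 0.0651). Tfeb fell (-0.47, adjusted p = 0.0244), a call that was lost without P1 replicate 2 or 3, without P3 replicate 3 or 4 and without a filter on low counts (adjusted p from 0.0525 to 0.0647). Glb1 (0.15, adjusted p = 0.196) and Tfe3 (-0.13) did not pass, but Tfe3 did with library totals (adjusted p = 0.0455).

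The middle step went up for most. In P5 against P3, 27 rose and 1 fell (66.7%, against 28.7% of all genes, 13.4% higher and 15.3% lower), with a median log2 fold change of 0.30 against 0.01. Of the 10 glycosidases and sulfatases 9 rose, of the 11 proteases 8, of the 7 pump subunits 4, of the 6 lipid genes 4 and of the 5 membrane proteins 2. Ctsf (0.66), Naglu (0.63) and Ctsd (0.59) rose most, Glb1 rose by 0.36 (adjusted p = 0.00374), and Ctss alone fell (-2.94). The log2 fold changes of Tfeb (0.22) and Tfe3 (0.13) did not pass.

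The last step changed fewer of them. In P7 against P5, 11 rose and 0 fell (26.2%, against 16.8% of all genes, 7.67% higher and 9.10% lower), and the median was 0.10 against -0.01. By edgeR at an unadjusted p under 0.05, 14 were higher and 2 lower. Ctsf (0.74), Ppt1, which removes palmitate from proteins (0.50), and Ctsh, an aminopeptidase (0.49), rose most. Ppt1 was at 73.5, 67.7, 66.9 and 73.9 CPM at P5 and at 95.9, 98.4, 96.9 and 108 at P7, without overlap. Glb1 had a log2 fold change of 0.21 (adjusted p = 0.0868), which passed with DESeq2 (0.0490) and without P5 replicate 4 (0.0241). Tfeb (-0.37) and Tfe3 (-0.25) did not pass, but Tfe3 did with library totals (adjusted p = 0.0241) and without P7 replicate 2 (0.0432). P5 replicate 4 stood high in Glb1 and Hexa, at 343 CPM of Hexa against 200, 243 and 238. The count of 11 depended on the libraries and on the fit: it was 7 without P5 replicate 1, 2 or 3 or P7 replicate 1, 14 without P5 replicate 4, 5 with only both groups in the fit, and 6 with library totals (5 higher and 1 lower).

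**Figure D3:**
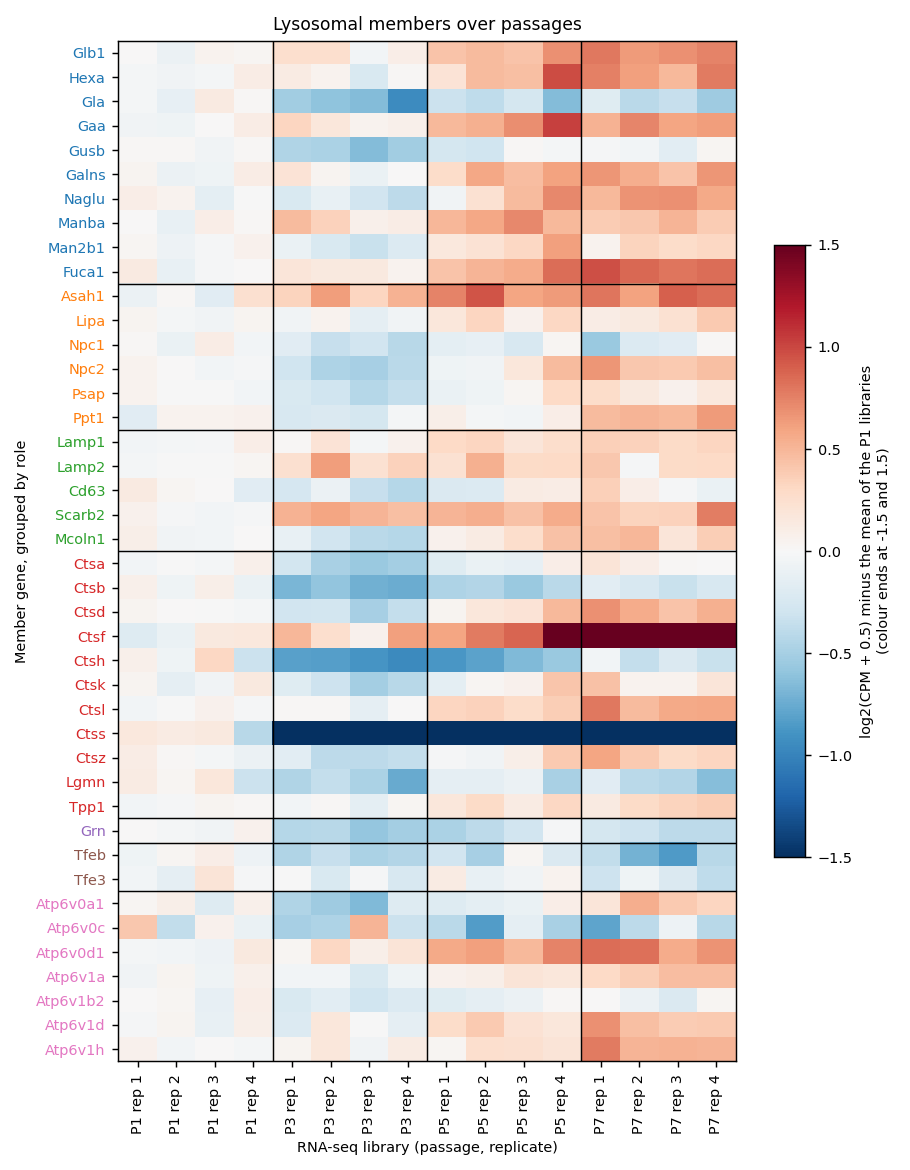
Level of the 42 genes in the 16 passage libraries as log2(CPM + 0.5) minus the mean of P1, grouped by role, with the colours ending at 1.5 in either direction. By the fitted difference, 30 of 42 genes are below 0 at P3 and 30 of 42 are above it at P7. These are not all the same genes: Gla is below 0 at both passages and Glb1 above it at both. Ctss is at the lower end of the scale from P3 on and Ctsf at the upper end at P7.

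With P3, where the macrophage markers were already lower, as the baseline, most of the genes rose. In P7 against P3, 31 rose and 1 fell (76.2%, against 51.3% of all genes, 24.8% higher and 26.5% lower), and the median was 0.49 against -0.01. Of the proteases 9 of 11 rose, of the glycosidases and sulfatases 9 of 10, of the lipid genes 5 of 6 and of the pump subunits 5 of 7. The highest log2 fold changes were those of Ctsf (1.40), Ctsd (0.91) and Npc2 (0.89), that of Glb1 was 0.58, and that of Ctss was -3.11. Tfeb (-0.16) and Tfe3 (-0.12) did not pass. This comparison shares its P7 libraries with P7 against P1 and its P3 libraries with both earlier steps, so their counts are not independent. The largest of the 3 steps was the first for 16 genes, the second for 21 and the third for 5. Glb1, Galns, Fuca1, Asah1, Lamp1, Ctsf, Atp6v0d1 and Atp6v1h had a mean that went up at all 3 steps, and Ctss one that went down at all 3.

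As a share of the library, the 42 genes took 1.45% of the counts at P1 (SD 0.0217, n = 4), 1.15% at P3 (SD 0.0616), 1.41% at P5 (SD 0.0940) and 1.48% at P7 (SD 0.0818). Without Psap, Lamp1 and Ctsd the shares were 1.00%, 0.790%, 0.950% and 0.997%. Levels of different genes were compared per kilobase of merged exons. At P7, Ctsd (771 CPM per kb), Lamp1 (766), Psap, the precursor of the saposins (726), and Cd63 (670) led, with SDs of 58.1, 17.6, 43.4 and 94.7. Each of them differed from the next in this order by less than the larger of both SDs, while Ctsd was above Cd63 in each of the 4 P7 libraries. That order reversed per kilobase of the longest transcript, where Cd63 was highest at 850 and Ctsd was at 771. By merged exons, Ctsl followed at 318. Glb1 was at 37.6 (SD 1.65), 28th of 42, close to Ppt1 at 37.8 and Atp6v1h at 39.9, and it had been at 22.8 at P1. Ctsf was at 21.2, up from 6.17. Tfeb was at 0.790, Ctss at 0.570 and Atp6v0c lowest at 0.300. Reads were counted without strand, and parts of some exons are shared with other genes: 22.31% of the exon bases of Ctsa with Pltp and Neurl2, 16.32% of Ctsb with Fdft1, 16.2% of Asah1 with Frg1, and 10.05% of Glb1 with Tmppe and Gm30254.

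**Figure D4:**
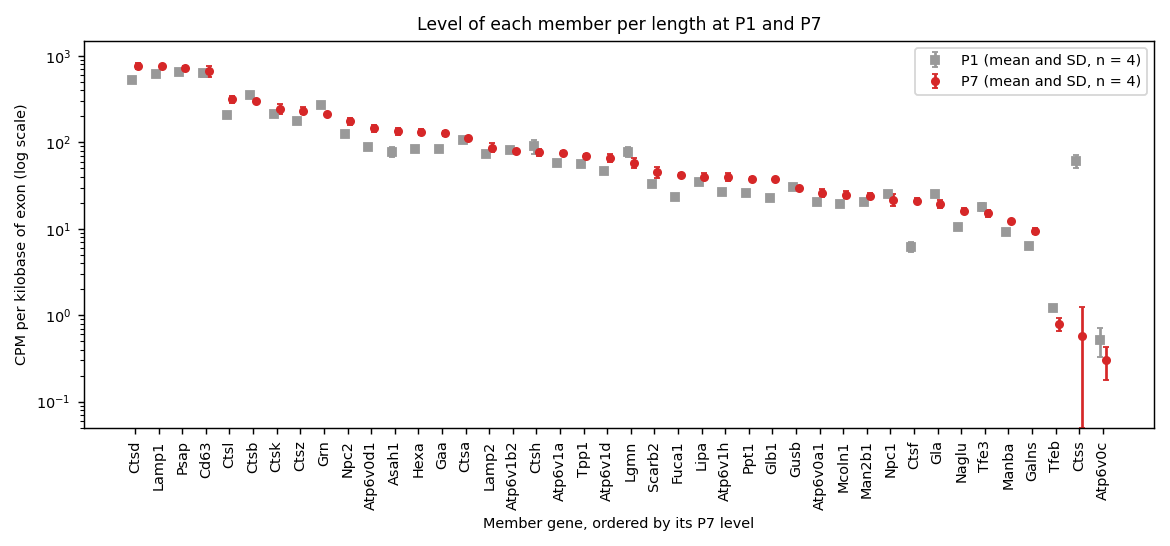
Level of the 42 genes per kilobase of merged exon at P1 and P7, as mean and SD of 4 libraries on a log axis of CPM per kb. Ctsd, Lamp1, Psap and Cd63 stand above 600 at P7, Glb1 lies in the lower middle at 37.6, and Tfeb, Ctss and Atp6v0c are under 1.

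Other genes of the lysosome and of the control of TFEB were counted for comparison. Of 53 other lysosomal genes, 34 rose and 9 fell in P7 against P1 (81.1%, against 62.5% of all genes tested), with a median of 0.45. Tmem175, a potassium channel of the lysosome (1.46), Aga, which splits the link of sugar to asparagine (1.43), and Gm2a, the activator of ganglioside GM2 hydrolysis (1.24), had the highest log2 fold changes, and Ctsc, a cathepsin that activates granule proteases (-1.65), and Gpnmb, a glycoprotein of macrophages and melanocytes (-1.15), the lowest. In P3 against P1 10 rose and 12 fell (41.5%, against 33.4% of all genes). In P5 against P3 it was 28 and 1 (54.7%, against 28.7%), and in P7 against P5 11 and 1 (22.6%, against 16.8%). Of 16 genes listed for the control of TFEB, 7 rose and 4 fell in P7 against P1 (68.8%, near the 62.5% of all genes tested). This list also holds Mitf and Tfec, which are relatives of TFEB. Among the 16 were Lamtor2, a part of the Ragulator complex that anchors mTORC1 (1.02), Mitf (-0.93), and Fnip2, a folliculin partner (-1.50).

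In ATAC-seq, which maps open chromatin and was performed on 13 samples (4 of P1 and 3 of each other passage), 41 of the 42 genes had a peak within 1000 bases of a start site in all samples. Ctss had none listed. The lists hold no read counts, so their depth is unknown, and each peak was placed by the percentile of its -log10 p among the peaks of its own sample. The strongest peak of 17 of the 42 genes (40.5%) did not overlap between the P1 and P7 samples, 6 higher and 11 lower at P7, against 30.3% of 26180 genes (9.53% higher and 20.7% lower). Of those genes 57.8% had a peak in every sample, and among these 15142 it was 46.7%, which is above the share of the 42. The Glb1 peak was at percentile 96.9, 96.5, 96.9 and 96.6 at P1 and at 90.2, 88.0 and 92.2 at P7, a difference of -6.59 in percentile (p = 0.0286 in a two-sided exact permutation test, the lowest that 4 against 3 samples can reach). All P7 samples were below all P1 samples, which also held for 32.7% of the 15142 genes with a peak in every sample, and the opposite for 14% of them. A percentile is a rank within a list of peaks called separately for each sample. For Ctsf (p = 0.714), Tfeb (p = 0.171) and Tfe3 (p = 0.8) the samples overlapped in the same exact test. These are 4 of 42 genes, and the p-values are not adjusted.

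With E2f4 overexpression, a smaller share of these genes than of all genes was called, with only 2 libraries a group. E2f4 itself was at 35.5 and 47.5 CPM in the control and 1118 and 1180 with overexpression, and in the knockdown at 59.6, 60.8 and 59.6 in nt and 21.6, 20.4 and 21.8 with sh1. With overexpression, 5 of the 40 genes tested rose and 12 fell (42.5%, against 57.2% of the 13199 genes tested, 28.9% higher and 28.2% lower), with a median log2 fold change of -0.08 against 0.01. Tfeb rose most (1.70), from 4.32 and 4.21 CPM to 13.1 and 14.6, and Tfe3 rose by 0.75, from 49.4 and 55.8 to 83.9 and 92.9. These were the only rises besides those of Ctsz, a carboxypeptidase (0.47), Gla (0.46) and Npc2 (0.29). Lamp2, the membrane protein of chaperone-mediated autophagy, fell most (-1.08), from 613 and 482 CPM to 277 and 240, followed by Asah1 (-0.95) and Atp6v1a (-0.84). Glb1 was at 41.2 and 42.4 CPM in the control and 32.2 and 38.5 with overexpression, which did not pass (-0.24, adjusted p = 0.124). The count of 17 rests on 2 libraries a group, and it moved both down and up when single libraries were left out. The size of the gap to all genes is therefore uncertain.

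With E2f4 sh1, 9 of 40 rose and 0 fell (22.5%, against 17.8% of the 12310 genes tested, 10.02% higher and 7.79% lower), and the median was 0.15 against -0.01. By edgeR at an unadjusted p under 0.05, 19 were higher and 1 lower. Lgmn had the highest log2 fold change of those called (0.52), at 49.4, 52.9 and 46.5 CPM in nt and 66.2, 68.2 and 79.1 with sh1, followed by Atp6v1d, a stalk subunit of the pump (0.41), and Hexa (0.41). The groups of Lgmn did not overlap. Glb1 (0.13, adjusted p = 0.333) and Tfe3 (-0.10) did not pass, and neither did Tfeb (0.57, adjusted p = 0.0781), although its 3 libraries with sh1 (6.03, 6.68 and 6.13 CPM) were above those of nt (4.66, 4.53 and 3.48). The count was 14 without sh1 replicate 1 and without a filter on low counts. Macrophage markers summed to 17.96 to 23.6 CPM with sh1 and 9.25 to 15.0 in nt, with C1qc at 0 in nt. Csf1r (4.66, 3.15 and 5.32 CPM in nt, 10.8, 9.20 and 10.7 with sh1) and Lyz2 were higher with sh1, whereas Cd68 was at 2.23, 1.48 and 2.90 CPM in nt and 1.24, 1.204 and 1.204 with sh1. Fibroblast markers summed to 35598 to 36689 CPM in nt and 27153 to 30478 with sh1, where 2 rose and 4 fell. Those of skeletal muscle summed to 77.2 to 77.8 and 113 to 137. Most of the muscle sum was Acta1, at 65.8, 69.3 and 66.7 CPM in nt and 123, 129 and 105 with sh1. Des was at 7.48, 6.79 and 7.84 CPM in nt and 6.32, 6.24 and 5.47 with sh1 and did not pass. Myod1 and Myog had no counts in either group. The part of these markers in the values above was not tested.

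**Figure D5:**
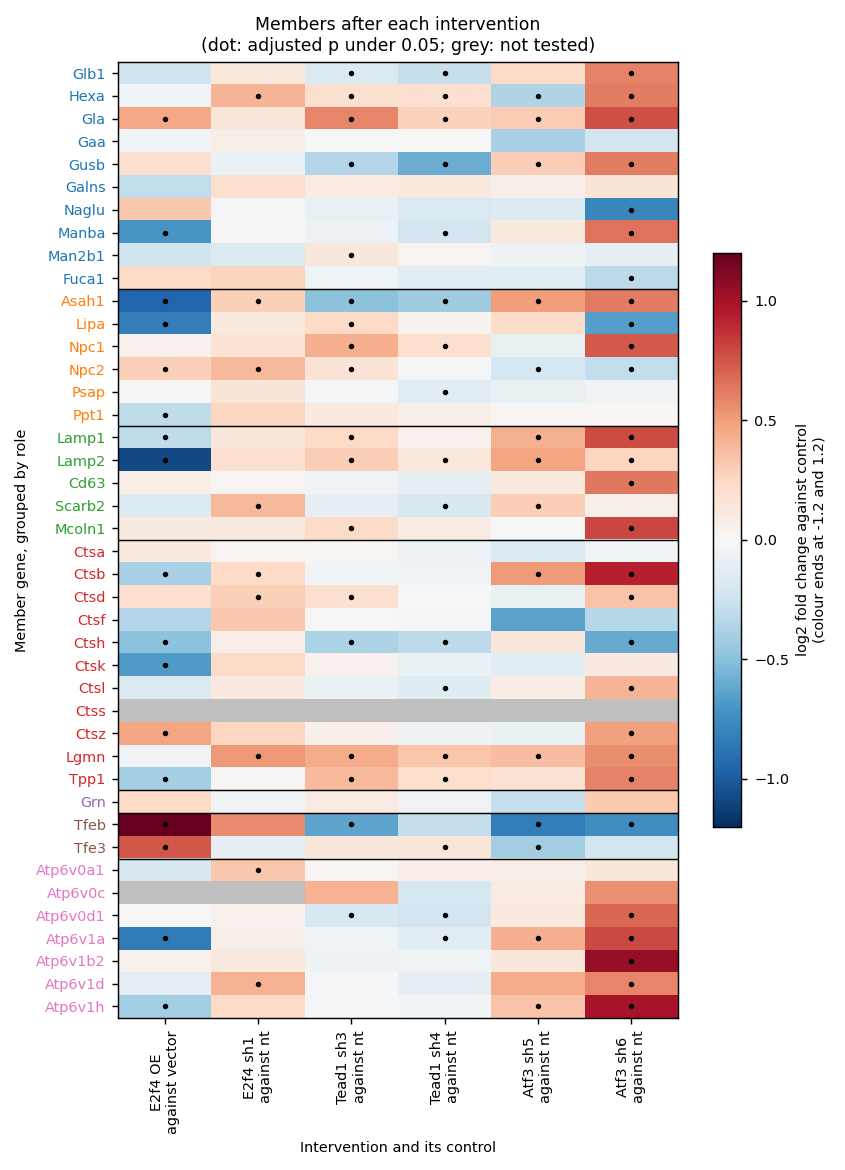
Log2 fold change of the 42 genes in 6 comparisons with a control (colours end at 1.2 in either direction; a dot marks an adjusted p under 0.05, and grey a gene not tested). The column of Atf3 sh6 holds the most dots (28), and that of E2f4 sh1 the fewest (9).

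Tead1 was at 572, 508 and 545 CPM in nt, at 268, 284 and 285 with sh3 and at 315, 313 and 320 with sh4. Both hairpins were compared with the same nt libraries, so their values are given side by side. With sh3, 12 of 41 rose and 6 fell (43.9%, against 35.4% of the 13012 genes tested, 17.6% higher and 17.7% lower), with a median of 0.02. With sh4, 7 rose and 10 fell (41.5%, against 29.1%, 14.4% higher and 14.7% lower), with a median of -0.04. Gla was at 20.8, 21.2 and 19.5 CPM in nt, at 29.7, 31.0 and 31.4 with sh3 (log2 fold change 0.58) and at 22.9, 26.1 and 25.6 with sh4 (0.28), so that neither hairpin overlapped nt. Lgmn rose by 0.45 with sh3 and 0.34 with sh4. The third of the highest was Npc1 with sh3 (0.44) and Tpp1, the tripeptidyl peptidase, with sh4 (0.21).

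Among the genes that fell, Asah1 was at 285, 319 and 305 CPM in nt, at 213, 213 and 220 with sh3 (-0.50) and at 227, 233 and 216 with sh4 (-0.43). Ctsh fell by 0.38 and 0.32 on the log2 scale. Gusb was at 51.0, 55.8 and 55.2 CPM in nt, at 43.7, 40.4 and 42.8 with sh3 (-0.35) and at 34.9, 38.3 and 33.9 with sh4 (-0.60). No knockdown library of Asah1 or Gusb overlapped nt. Glb1 was at 47.1, 43.5 and 48.8 CPM in nt, at 41.4, 39.9 and 42.1 with sh3 (-0.18, adjusted p = 0.0257) and at 40.4, 37.6 and 37.1 with sh4 (-0.28, adjusted p = 0.000973). The sh3 call of Glb1 was lost without nt replicate 1 or 3 or sh3 replicate 1 or 2 (adjusted p from 0.0519 to 0.144). Tfeb fell with sh3 (-0.63, adjusted p = 0.0107), a call lost without nt replicate 1 (0.0898) or sh3 replicate 2 (0.0687), and did not pass with sh4 (-0.29). Tfe3 did not pass with sh3 (0.14) and rose by 0.15 with sh4 (adjusted p = 0.0422), a call lost with DESeq2 (0.0665), without a filter on low counts (0.0644) and without any nt library or sh4 replicate 1 or 3 (0.0536 to 0.209).

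Compared with each other, sh4 was lower than sh3 for 11 genes and higher for 0 (26.8%, against 7.37% of all genes, 3.34% higher and 4.03% lower), with a median log2 fold change of -0.09. By edgeR at an unadjusted p under 0.05, 0 were higher and 16 lower. Gla (-0.30), Gusb (-0.25) and Npc1 (-0.24) had the lowest values, and Glb1, Tfeb and Tfe3 did not pass. The count was 7 without sh3 replicate 1 or 2, 5 without sh3 replicate 3, 4 without sh4 replicate 1 and 7 without sh4 replicate 3. The call of Gla was lost without sh4 replicate 1 (adjusted p = 0.0832), that of Npc1 without sh3 replicate 2 (0.0618), and that of Gusb without sh3 replicate 1 or 3 or sh4 replicate 1 or 3 (0.0568 to 0.0912). Tead1 itself was higher with sh4 than with sh3 (0.18, adjusted p = 0.00625).

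Atf3 was itself low, at 3.31, 2.85 and 2.77 CPM in nt, at 1.46, 2.10 and 0.451 with sh5 (-1.14, adjusted p = 0.0447) and at 1.51, 1.56 and 2.09 with sh6 (-0.79, adjusted p = 0.114). In these counts its reduction with sh6 thus did not pass the test. The study reports the knockdown of Atf3 by RT-qPCR and, for the protein, by immunoblot, which were not examined here. The library labelled sh5 replicate 3 stood apart in several of the 42 genes, such as Gaa (255 CPM against 402 and 416) and Atp6v1d (127 against 70.4 and 68.3), and in the summed fibroblast markers (25469 CPM against 36537 and 37750). With sh6 these markers summed to 17113 to 17964 CPM, and in nt to 39158 to 40863. Most of each sum was Col1a1 and Col1a2. Col1a1 was at 16525, 17335 and 16256 CPM in nt, at 13442, 14142 and 6986 with sh5 and at 4705, 4591 and 4803 with sh6. Dcn, in contrast, was higher in sh5 replicate 3 (1344 CPM) than in sh5 replicates 1 and 2 (739 and 752). Against nt, 3 of the 10 markers rose and 1 fell with sh5, and 0 rose and 7 fell with sh6. All 10 of them had counts in every group, and their part in the results was not tested.

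With sh5, 10 of 41 rose and 4 fell (34.1%, against 35.9% of the 13345 genes tested, 17.7% higher and 18.1% lower), and the median was 0.09 against -0.03. The count of 14 was 21 without sh5 replicate 3 and 9 without nt replicate 2. Ctsb (0.51), Asah1 (0.50) and Lamp2 (0.47) rose most, although the call of Asah1 was lost without nt replicate 2 (adjusted p = 0.0541). Tfeb (-0.83), Tfe3 (-0.41) and Hexa (-0.36) fell most. The call of Tfe3 (adjusted p = 0.0377) was lost with only both groups in the fit (0.0871) and without nt replicate 2 (0.102) or 3 (0.126). Glb1 was at 68.7, 67.6 and 68.1 CPM in nt and at 73.0, 77.0 and 89.3 with sh5. These groups did not overlap, but the log2 fold change of 0.23 did not pass (adjusted p = 0.0714), except without sh5 replicate 1 (0.0455).

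With sh6, 22 rose and 6 fell (68.3%, against 49.8%, 23.8% higher and 26.0% lower), with a median of 0.41 against -0.02. The same nt libraries served as the control. Of the 7 pump subunits 5 rose, of the 5 membrane proteins 4, of the 10 proteases tested 6 and of the 10 glycosidases and sulfatases 5. Atp6v1b2 had the highest log2 fold change (1.04), at 116, 106 and 108 CPM in nt and 219, 233 and 227 with sh6. Atp6v1h, which regulates the coupling of ATP hydrolysis in V1, went from 112, 100 and 110 CPM to 210, 208 and 224 (0.99), and Ctsb from 647, 621 and 654 to 1239, 1262 and 1174 (0.93). None of these groups overlapped. Glb1 rose as well (0.59, adjusted p = 0.000329), to 106, 108 and 94.8 CPM.

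The genes that fell most with sh6 were Naglu (-0.78), Tfeb (-0.74) and Lipa, the acid lipase of cholesteryl esters (-0.66). Tfeb was at 6.07, 6.97 and 7.16 CPM in nt, at 3.30, 4.04 and 4.003 with sh5 and at 3.89, 5.15 and 3.02 with sh6, below nt in each knockdown library. The call of Naglu (adjusted p = 0.0196) was lost without nt replicate 1 or sh6 replicate 2 or 3 (0.0520 to 0.0805). Tfe3 did not pass with sh6 (-0.22), except with only both groups in the fit (adjusted p = 0.0209).

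Set against sh5, sh6 was higher for 20 genes and lower for 3 (56.1%, against 52.6%, 25.9% higher and 26.6% lower), with a median of 0.30. Among these genes, Hexa alone was called in opposite directions with both hairpins of a target. How many of all genes tested had such opposite calls was not counted. Hexa was at 215, 208 and 221 CPM in nt, at 171, 175 and 157 with sh5 and at 349, 337 and 300 with sh6. The 3 groups did not overlap, and sh6 against sh5 had a log2 fold change of 0.97 (adjusted p = 4.90e-06). Atp6v1b2 (0.91) and Npc1 (0.82) came next, and Lipa (-0.88), Ctsh (-0.74) and Scarb2 (-0.24) were lower. Glb1 was higher with sh6 (0.37), and neither Tfeb nor Tfe3 passed.

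Over the interventions, the 42 genes took 0.690% of the counts in the E2f4 overexpression control and 0.611% with E2f4, 0.702% in E2f4 nt and 0.782% with sh1, 0.791% in Tead1 nt, 0.824% with sh3 and 0.769% with sh4, and 1.14% in Atf3 nt, 1.23% with sh5 and 1.43% with sh6. Ctsf, the gene that rose most with passage, passed the test in none of the 6 comparisons with a control. Ctsa, Gaa, Galns, Grn and Atp6v0c did not pass in any of them either. Ctss, which could not be tested there, was at 0 to 0.438 CPM in the intervention libraries. Of the 53 other lysosomal genes, 11 rose and 19 fell with E2f4 overexpression, 10 and 1 with E2f4 sh1, 17 and 10 with Tead1 sh3, 12 and 22 with Tead1 sh4, 18 and 9 with Atf3 sh5, and 26 and 11 with Atf3 sh6. Of the 16 genes listed for the control of TFEB it was 4 and 6, 2 and 1, 5 and 2, 3 and 2, 4 and 2, and 3 and 4 in the same order. Of the 53 genes, 56.6%, 20.8%, 50.9%, 64.2%, 50.9% and 69.8% were thus called. Of the 16 genes, these shares were 62.5%, 18.8%, 43.8%, 31.2%, 37.5% and 43.8%. Over all genes tested, they were 57.2%, 17.8%, 35.4%, 29.1%, 35.9% and 49.8%.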

How the data were processed

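RNA-seq of 44 libraries and ATAC-seq of 13 samples of mouse skin fibroblasts were used. Per the methods and the labels, RNA-seq reads were processed by the authors with Trimmomatic 0.39 (trimming), HISAT2 2.2.1 (alignment to mm10) and HTSeq-count 0.12.4 (reads per gene, strand ignored). What was deposited are the raw counts. Reads that named no gene (7.5% to 16.8% of a library, listed for the interventions only) were left out. For ATAC-seq the authors aligned with Bowtie2, removed duplicates and called peaks with MACS2 in each sample. The deposited peak lists give the fold enrichment over background (a ratio), and −log10 p and −log10 q values as the authors' caller wrote them, without read counts. Bisulfite sequencing was not analysed here.

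The 5 experiments were tested apart, in R 4.3.3 with edgeR 4.0.16 (filterByExpr, TMM, quasi-likelihood test, Benjamini-Hochberg adjustment over all genes tested, threshold 0.05), with all its groups in 1 fit and 1 coefficient per group. The SE is the log2 fold change divided by the root of the F statistic. Over 50 pairs of replicates the chi-square per degree of freedom was 2.75 to 63.7, above sampling noise, so no library was taken for a copy of another. ATAC-seq percentiles were compared with exact permutation tests of the absolute difference (scipy 1.17.1). Promoters and exons were RefSeq's for GRCm38.

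The 42 genes and the lists were chosen with earlier results of these data known. Named with values were Glb1, Tfeb and Tfe3 in every comparison, the 8 highest and up to 8 lowest called log2 fold changes in P7 against P1, the 3 highest and 3 lowest elsewhere, any gene called in opposite directions with both hairpins of a target, and the targets. Other genes were named to complete their role group, after their values were seen. The scripts were tested on simulated counts. The alternatives were DESeq2 1.42.0, its size factors, library totals, omitting the filter, asking for 10 or more counts in each library, only both groups in the fit, the replicate number as a block, and leaving out each library in turn.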

Additional observations from a re-analysis of the deposited data

Results flagged for a closer look

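In 5 of the 91 groups of 4 libraries examined, 1 library lay far from the others of its passage, where chance gives about 1 in 20. P5 replicate 4 was high in Glb1, at 91.2 CPM against 76.2 to 78.6 in the other P5 libraries, and low in Lgmn, at 111 CPM against 141 to 146. P1 replicate 4 was high in Hexa, at 188 CPM against 168 to 171, and low in Ctss, at 64.7 CPM against 94.3 to 96.6. P1 replicate 1 was low in Ppt1, at 61.4 CPM against 71.3 to 72.3. P1 replicate 4 also had the lowest summed level of macrophage markers of the P1 libraries, and its part in these values was not tested.

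Hexa differed between the hairpins against Atf3: it fell with sh5 and rose with sh6, and sh6 was higher than sh5 by a log2 fold change of 0.97 (edgeR's quasi-likelihood test, adjusted p = 4.90e-06), in 3 of 3 libraries against 3 of 3.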

How the results depend on the processing

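The counts of called genes stayed within 1.5 times of the reported ones with DESeq2, its size factors, 10 or more counts in each library and the replicate block. In P7 against P5 the count of 11 became 6 with library totals and 5 with only both groups in the fit, and in E2f4 sh1 the count of 9 became 14 without a filter on low counts. Leaving out 1 library at a time gave 17 to 20 genes in P3 against P1, 20 to 28 in P5 against P3, 7 to 14 in P7 against P5, 31 to 33 in P7 against P3 and 29 to 32 in P7 against P1. It gave 11 to 21 with E2f4 overexpression, 7 to 14 with E2f4 sh1, 15 to 18 with Tead1 sh3, 13 to 17 with Tead1 sh4, 4 to 11 in Tead1 sh4 against sh3, 9 to 21 with Atf3 sh5, 24 to 26 with Atf3 sh6, 21 to 28 in Atf3 sh6 against sh5, and 17 to 24 promoter peaks. The cause of these changes was not tested.

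Without Psap, Lamp1 and Ctsd the share of counts on the genes was, by construction, lower: 1.00% at P1, 0.790% at P3, 0.950% at P5, 0.997% at P7, 0.476% in the E2f4 overexpression control, 0.403% with E2f4, 0.480% in E2f4 nt, 0.530% with sh1, 0.531% in Tead1 nt, 0.541% with sh3, 0.514% with sh4, 0.742% in Atf3 nt, 0.813% with sh5 and 0.945% with sh6.

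Of 1409 alternative fits of the 104 named values, 1364 stayed on the same side of the threshold. Another 38 kept the direction but lost the call, and 7 kept it and gained the call. The direction reversed in 0 cases where either fit had a call. A change of sign between fits that both lacked a call was counted among the 1364. Replicate numbers were not taken as pairs in the reported fits. Among passage libraries, a correlation of deviations over 0.1 was more frequent in same-numbered pairs (11 of 24, -0.264 to 0.277) than in differently numbered ones (12 of 72). Whether libraries of the same number share a culture was not tested. Same-numbered pairs were over 0.1 in 1 of 9 cases for Tead1, 2 of 9 for Atf3 and 0 of 3 for the E2f4 knockdown. For E2f4 overexpression 2 of 2 were (0.142), but with 2 libraries a group both pairs hold the same value by construction. All 6 pairs of passage libraries numbered 4 were over 0.1 (0.105 to 0.277). With the replicate block the counts were 22, 30, 10, 32 and 33 for the passages in the order above, 20 and 12 for E2f4 overexpression and sh1, 18, 17 and 10 for Tead1, and 13, 28 and 22 for Atf3. Depth limits Tfeb, Ctss, Atf3 and Atp6v0c, which had few counts. Intervals cover counting error and the spread between libraries only, and no depth is known for ATAC-seq.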
